A study of Mus with 4 samples.

Results

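*Lin28a*, *Lin28b*, *Myc*, *Mycn*, *Igf2bp1*, *Igf2bp2*, *Igf2bp3*, *Hmga1* and *Hmga2* were examined in nephron progenitor cells (NPCs) with and without the prorenin receptor (PRR). All 9 genes had a probe on the array, and every non-control probe whose accession maps to one of these symbols was taken, which gave 15 of 41174 probes. The NPCs were *Six2*-positive cells that the study isolated by FACS from kidneys on embryonic day 15.5, and each RNA sample came from a pool of several kidneys. Mutant pools (*Mut*) were *Six2*Cre+ PRR flox/flox and control pools (*WT*) were *Six2*Cre+ PRR+/+, so that both genotypes carried the *Six2*GFPCre transgene, which drives Cre in NPCs, and differed in the floxed PRR alleles. On arrays 1, 2 and 3 a Cy3-labelled *Mut* pool was set against a Cy5-labelled *WT* pool that bears the same pool number. On array 4 *WT* pool 1 (Cy5) was set against *WT* pool 2 (Cy3). The dyes were never exchanged on arrays 1 to 3, so genotype and dye cannot be told apart there, and array 4 is the only measure of dye and array without a difference of genotype.

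*Lin28a* and *Lin28b* encode RNA-binding proteins that are abundant in early embryonic and fetal cells and block the maturation of the let-7 family of microRNAs. Let-7 in turn lowers the mRNAs of *Hmga2*, *Igf2bp1*, *Igf2bp2*, *Igf2bp3* and *Myc*, so that these genes are often studied together as a fetal program whose decline accompanies the maturation of a tissue. In the kidney, the lifespan of NPCs and with it the end of nephrogenesis have been linked to this timing program and to *Myc* and *Mycn*, which keep progenitors proliferating. These relations are background and were not measured here, since the array holds probes for mRNAs and not for mature let-7.

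No probe of these genes differed between *Mut* and *WT* past both thresholds of the study's methods, which are 0.05 for the adjusted P and 1.5 for the fold change. That was 0 of 15 probes in limma, against a background of 2.01% of the 41166 probes tested (0.554% higher and 1.46% lower in *Mut*). The methods' t-test with Benjamini-Hochberg adjustment called 0 of all probes tested, so its 0 for these genes is not informative. At the unadjusted limma P 6 probes were under 0.05 (40.6% of all probes were), none of them past 1.5-fold. At the adjusted P alone 6 probes (40%) passed, where 29.6% of all probes did. The 2 higher in *Mut* were those of *Hmga1* and *Igf2bp2* (background 13.2%), and the 4 lower were those of *Hmga2* and *Igf2bp1*, 1 of 3 of *Igf2bp3* and 1 of 3 of *Myc* (background 16.4%). Median centring of the arrays, used instead of loess, put *Hmga1* and *Igf2bp2* below 0, but above the median that the probes well above background had there, as given with their values. The shift was not alike for all probes, and *Mycn* A_51_P497332 read 0.08 with loess and 0.06 with median centring. A distance from that median therefore gives no direction by itself. The median log2 *Mut*/*WT* was 0.05 over the 15 probes and -0.00 over all probes.

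**Figure D1:**
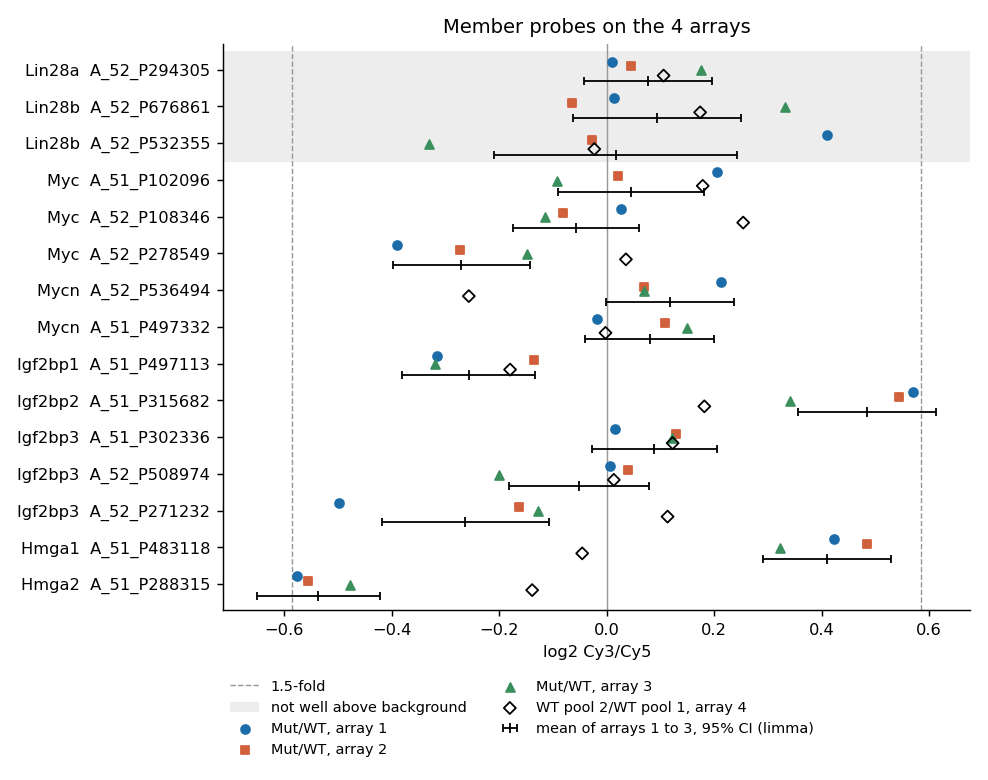
Log2 Cy3/Cy5 (x axis) of the 15 probes on arrays 1 to 3 (filled symbols, *Mut*/*WT*) and on array 4 (open diamonds, *WT* pool 2/*WT* pool 1), with the mean of arrays 1 to 3 and its 95% confidence interval from limma (bars). The dashed lines mark 1.5-fold and the grey band the 3 *Lin28* probes that were not well above background. The mean of *Hmga2* is farthest from 0, at -0.54, and the 3 *Mut* arrays of *Hmga1*, *Hmga2* and *Igf2bp2* lie on one side of 0, beyond array 4. With each array centred on its median *Hmga1* and *Igf2bp2* lay below 0, and 0.14 and 0.33 above the median of the probes well above background.

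The 4 arrays lay on 1 slide with 1 scan, the median signal was 65.5 to 82 in Cy3 and 84 to 92 in Cy5, and 45.1% to 51.1% and 54.1% to 58.3% of probes were well above background in these dyes. The sorted cells showed all 9 markers of NPCs well above background, of which 1 was higher and 5 were lower in *Mut* at the adjusted P, as were 14.4% and 18.6% of all named genes at their brightest probe, and none was past 1.5-fold. Their summed signal was 23123 to 24874 in *Mut*, 26115 to 27850 in *WT* on arrays 1 to 3, and 26451 and 24183 in *WT* pools 1 and 2 on array 4, the latter inside the range of *Mut*. Among 6 erythroid markers 4 were higher at the adjusted P, led by *Hba-a1* (log2 *Mut*/*WT* 1.17), *Hbb-bh1* did not rise well above background anywhere, and the summed signal was 3452 to 3634 in *Mut*, 1669 to 1835 in *WT* on arrays 1 to 3 and 3996 and 3519 in *WT* pools 1 and 2 on array 4. All 7 stromal markers passed the adjusted P, 5 higher, with *Col1a1* past 1.5-fold at 0.89, and 2 lower, and their summed signal was 16434 to 19718 in *Mut*, 14326 to 16752 in *WT* and 14375 and 16028 on array 4. Of 7 markers of differentiating nephrons 5 were higher, with *Lhx1* past 1.5-fold at 0.69 and a summed signal of 1733 to 1873 in *Mut* against 1361 to 1463 in *WT* and 1946 and 1933 on array 4. The direction found for *Lhx1*, *Jag1* and *Fgf8* here is opposite to the one the study gives for them. The study reports its direction from RT-PCR of the sorted cells as well as from the arrays. No marker of ureteric bud or endothelium and 1 of 4 of macrophages (lower) passed. Only 2 of 6, 2 of 6 and 1 of 4 of these were well above background in all *Mut* channels, which limits this. The part of these cells in the values that follow was not tested, and in pooled cells fewer cells that express a gene and less of its RNA per cell cannot be told apart. The probe of the PRR gene, *Atp6ap2*, had a normalized log2 signal of 7.998, 8.08 and 7.95 in *Mut*, 8.07, 8.27 and 8.20 in *WT* and 8.08 and 7.90 on array 4, with a log2 *Mut*/*WT* of -0.17 (adjusted P = 0.0353, lower in *Mut* on 3 of 3 arrays) and 0.02 with the dye term, and which part of the transcript it binds was not determined. The study reports a fall of PRR mRNA in the sorted *Mut* cells by RT-PCR. Directions are given as the dye labels set them.

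*Lin28a*, which is present in pluripotent and early progenitor cells, was measured by 1 probe that did not reach the level called well above background in any of the 8 channels. Its raw signal was 58, 67.5, 64 and 66 in Cy3 on arrays 1 to 4 and 64, 62.5, 61 and 56 in Cy5, below the median of all spots of the same array and dye, with a local background of 15.5 to 19.5 in Cy3 and 46 to 51.5 in Cy5. No channel stood out from the others. The 2 probes of *Lin28b*, the paralogue that persists longer in fetal tissues, did not reach it either, with raw signals of 36.5 to 69 in Cy3 and 61 to 74 in Cy5. For both genes the level in *Mut* and in *WT* is therefore only bounded by the background, and the log2 values that follow are not read as a change. The log2 *Mut*/*WT* of *Lin28a* was 0.01, 0.05 and 0.18 on the 3 arrays, and 0.11 between the *WT* pools. For *Lin28b* it was 0.01, -0.06 and 0.33 at A_52_P676861 and 0.41, -0.03 and -0.33 at A_52_P532355. At background these values carry no direction. In the log ratios deposited by the study, which were formed after subtraction of the background, the *Lin28a* probe read 1.43, 1.96 and 0.99, far from the values after normexp and loess.

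*Myc* encodes a transcription factor that drives growth and ribosome production. It had 3 probes, all well above background in both channels on 4 arrays. A_51_P102096 was printed at 10 spots per array, and its mean log2 *Mut*/*WT* was 0.21 on array 1, 0.02 on array 2 and -0.09 on array 3, with 0.18 between the *WT* pools on array 4. The mean was 0.05 ± 0.15 (SD, n = 3), with a 95% confidence interval of -0.09 to 0.18 and an adjusted P of 0.624 in limma.

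The SD over the 10 spots was 0.046, 0.052, 0.052 and 0.048 on arrays 1 to 4, about as large on each array. The SD over the means of arrays 1 to 3 was 0.15, which also holds the differences between pools. On array 1 all 10 spots were above 0, at 0.16 to 0.29. On array 3 none was, at -0.19 to -0.01. The spots of arrays 1 and 3 thus did not overlap, while those of array 2, at -0.11 to 0.08, overlapped array 3. On array 4, where both channels were *WT*, all 10 spots were again above 0, at 0.10 to 0.25, overlapping array 1.

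**Figure D2:**
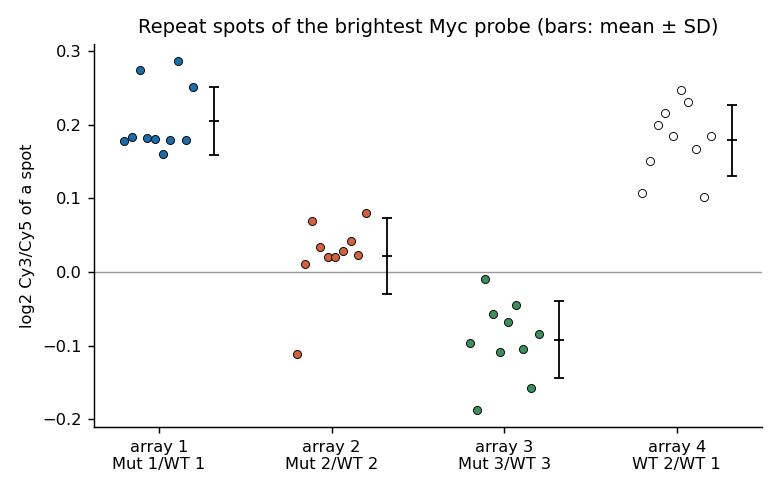
Log2 Cy3/Cy5 (y axis) of each of the 10 repeat spots of the *Myc* probe A_51_P102096 on arrays 1 to 4 (x axis), with the mean and SD over the spots of an array beside them. The spots of array 1 (0.16 to 0.29) and array 3 (-0.19 to -0.01) do not overlap, and array 4, which compares the *WT* pools, lies at 0.10 to 0.25.

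A_52_P108346 of *Myc* was at 0.03, -0.08 and -0.12 on arrays 1 to 3 and at 0.25 on array 4, with a mean of -0.06 (SE 0.054, adjusted P = 0.460). The dimmest of the *Myc* probes, A_52_P278549, stood apart. Its normalized log2 signal was 6.94, 7.08 and 7.20 in *Mut* pools 1 to 3 and 7.33, 7.35 and 7.35 in *WT* pools 1 to 3, so the 3 *Mut* pools lay below the 3 *WT* pools, with a mean log2 *Mut*/*WT* of -0.27 ± 0.12 (SD, n = 3; SE 0.058, adjusted P = 0.00468). On array 4 the *WT* pools were at 7.11 and 7.15, within the range of *Mut*, and with a dye term the fitted value was -0.31 (adjusted P = 0.252). With the dye term A_51_P102096 was at -0.13 (adjusted P = 0.682) and A_52_P108346 at -0.31 (95% confidence interval -0.55 to -0.08, adjusted P = 0.206), so that all 3 *Myc* probes were below 0 there. They were also below 0 with each array centred on its median, at -0.55, -0.61 and -0.53, where the median of the probes well above background was itself at -0.44. None of the 3 passed the adjusted P under either setting.

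*Mycn*, the family member best known from embryonic progenitors, had 2 probes. At the brighter, A_52_P536494, the normalized log2 signal was 9.83, 9.55 and 9.46 in *Mut* and 9.62, 9.48 and 9.39 in *WT*, and 9.66 and 9.41 in *WT* pools 1 and 2 on array 4. The groups overlapped, and pool 1 was the highest of each genotype. Its log2 *Mut*/*WT* was 0.21, 0.07 and 0.07, higher in *Mut* on 3 of 3 arrays (with each array centred on its median the value was -0.45, at the median of the probes well above background), with a mean of 0.12 ± 0.083 (SD, n = 3; adjusted P = 0.128), and -0.26 on array 4. A_51_P497332 was at -0.02, 0.11 and 0.15, with a mean of 0.08 ± 0.087 (SD, n = 3; adjusted P = 0.297) and -0.00 on array 4. Neither probe passed the adjusted P, with 95% confidence intervals of -0.0018 to 0.24 and -0.04 to 0.20. With the dye term A_52_P536494 moved to 0.37 (95% confidence interval 0.14 to 0.61, which reaches past 1.5-fold; adjusted P = 0.139) and A_51_P497332 stayed at 0.08 (adjusted P = 0.790).

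The Igf2bp proteins bind mRNAs, *Igf2* among them, and govern their stability, localization and translation. *Igf2bp1* (A_51_P497113) had a normalized log2 signal of 8.86, 8.96 and 8.86 in *Mut* and 9.18, 9.09 and 9.18 in *WT*. All *Mut* pools were below all *WT* pools of the same arrays, and the log2 *Mut*/*WT* was -0.32, -0.14 and -0.32, a mean of -0.26 ± 0.11 (SD, n = 3; SE 0.057, adjusted P = 0.00529), or 1.19-fold lower. On array 4 *WT* pool 1 in Cy5 was at 9.05 and *WT* pool 2 in Cy3 at 8.87, so the *WT* pool in the dye of the *Mut* pools fell among them. With the dye term the value was -0.08 (adjusted P = 0.815).

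*Igf2bp2* (A_51_P315682) had a normalized log2 signal of 10.53, 10.61 and 10.36 in *Mut* and 9.96, 10.07 and 10.02 in *WT*, and *WT* pools 1 and 2 were at 10.10 and 10.28 on array 4. It was the one probe of the 15 whose 3 *Mut* channels lay above all 5 *WT* channels, which 6.64% of all probes showed, and none of the 15 had them below all 5 (10.1% of all probes). Against the 3 *WT* channels of arrays 1 to 3, 6 of the 15 did not overlap (38.0% of all probes), of which 2 were above (17.5%) and 4 below (20.5%). The log2 *Mut*/*WT* of *Igf2bp2* was 0.57, 0.54 and 0.34, a mean of 0.48 ± 0.13 (SD, n = 3; SE 0.059, adjusted P = 0.000122), or 1.40-fold, and 0.18 on array 4. Within Cy3 alone the mean of the *Mut* pools was 0.22 above *WT* pool 2, a value from 1 *WT* pool with no test. With the dye term the value was 0.30 (95% confidence interval 0.04 to 0.56, adjusted P = 0.263). With each array centred on its median it read -0.11, but there the median of the 17900 probes well above background in both channels of arrays 1 to 3 was itself at -0.44, and relative to that median *Igf2bp2* was at 0.33.

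*Igf2bp3* had 3 probes, of which 1 had a mean above and 2 a mean below 0. A_51_P302336 was at 0.02, 0.13 and 0.12 (mean 0.09, SE 0.053, adjusted P = 0.231) and 0.12 on array 4, and it passed the adjusted P with the deposited log ratios, at 0.19 (adjusted P = 0.0466). A_52_P508974 was at 0.01, 0.04 and -0.20 (mean -0.05, SE 0.059, adjusted P = 0.555) and 0.01 on array 4. The dimmest, A_52_P271232, was at -0.50, -0.16 and -0.13, lower in *Mut* on 3 of 3 arrays, with a mean of -0.26 ± 0.20 (SD, n = 3; adjusted P = 0.0156) and 0.11 on array 4. Its result rested on array 1, without which it was at -0.15 (adjusted P = 0.127). The normalized log2 signal of this probe was 7.36, 7.50 and 7.59 in *Mut*, 7.86, 7.66 and 7.72 in *WT*, and 7.52 and 7.63 in *WT* pools 1 and 2 on array 4, the first inside the range of *Mut* and the second between the groups. With the dye term the 3 probes were at -0.03, -0.06 and -0.38, the last with a 95% confidence interval of -0.69 to -0.07 (adjusted P = 0.245). With each array centred on its median they were at -0.44, -0.58 and -0.62, which is 0.00, -0.13 and -0.18 from the median of the probes well above background, and none passed the adjusted P under these settings.

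*Hmga1* and *Hmga2* encode small chromatin proteins that bend AT-rich DNA and are abundant in embryonic and tumour cells. Both passed the adjusted P, in opposite directions, and neither passed 1.5-fold. *Hmga1* (A_51_P483118) had a normalized log2 signal of 13.89, 13.96 and 13.88 in *Mut* and 13.47, 13.47 and 13.56 in *WT*. The *Mut* pools were all above the *WT* pools of arrays 1 to 3, with a log2 *Mut*/*WT* of 0.42, 0.48 and 0.32, a mean of 0.41 ± 0.082 (SD, n = 3; SE 0.054, adjusted P = 0.000209), or 1.33-fold. Centred on the median of each array the value was -0.30, which is 0.14 above the median of the probes well above background under that centring. The mouse genome holds a near-identical copy, *Hmga1b*, and whether the probe tells them apart was not determined.

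On array 4 *WT* pool 1 was at 13.99 and *WT* pool 2 at 13.94 for *Hmga1*, the level of the *Mut* pools. *WT* pool 1 in Cy5 thus differed by 0.52 between arrays 4 and 1, with genotype, pool and dye the same, which is more than the mean difference of 0.41 between the genotypes. The ratio within array 4 was -0.05, so a dye term left the fitted value at 0.46 (adjusted P = 0.0756), whereas in Cy3 alone the mean of the *Mut* pools minus *WT* pool 2 was -0.03. *Hba-a1*, an erythroid marker, had the most similar pattern to *Hmga1* over the 8 channels (Pearson r = 0.99), and the summed erythroid signal was likewise high in both *WT* channels of array 4. Their part in the *Hmga1* value was not tested.

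*Hmga2* (A_51_P288315), the classic let-7 target, had the largest change of the 15 probes in the reported setting, though not with the dye term, where *Hmga1* was at 0.46, nor with the deposited log ratios or a normexp offset of 0, where dim *Lin28* probes read farther from 0. Its normalized log2 signal was 8.31, 8.26 and 8.39 in *Mut* and 8.89, 8.82 and 8.87 in *WT*. All *Mut* pools were below all *WT* pools of arrays 1 to 3, the log2 *Mut*/*WT* was -0.58, -0.55 and -0.48, and the mean was -0.54 ± 0.052 (SD, n = 3; SE 0.052, adjusted P = 2.96e-05), or 1.45-fold lower, just short of 1.5-fold. It was lower in *Mut* under all 8 alternative settings that could change its value, at -1.04 to -0.40, and its adjusted P lay between 2.9e-08 and 0.133 over all 12. With the deposited log ratios, under which 6.57% of all probes passed both thresholds and 11.4% the adjusted P, it was the one probe of the 15 past both, at -0.66.

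On array 4 *Hmga2* was at 8.49 in *WT* pool 1 and at 8.35 in *WT* pool 2, the latter within the range of the *Mut* pools. *WT* pool 1 in Cy5 differed by -0.39 between arrays 4 and 1. In Cy3 alone the mean of the *Mut* pools minus *WT* pool 2 was -0.03, and with the dye term the value was -0.40 (95% confidence interval -0.63 to -0.17, adjusted P = 0.106). For *Hmga1* and *Hmga2* alike the difference between genotypes within arrays 1 to 3 was therefore much larger than the spread over the 3 pools, and *WT* RNA on array 4 gave a signal near that of *Mut*.

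**Figure D3:**
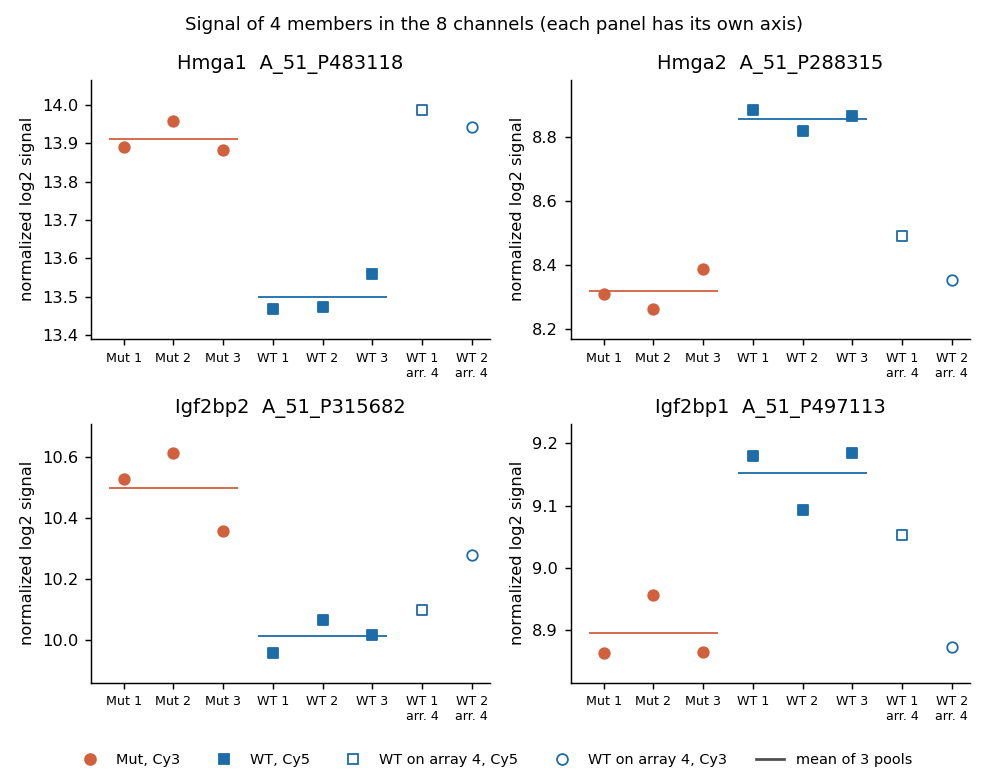
Normalized log2 signal (y axis, a separate scale in each panel) of *Hmga1*, *Hmga2*, *Igf2bp2* and *Igf2bp1* in the 3 *Mut* pools (red circles, Cy3), the 3 *WT* pools of the same arrays (filled blue squares, Cy5) and *WT* pools 1 and 2 on array 4 (open symbols), with lines at the mean of 3 pools. The *Mut* pools lie apart from the filled *WT* squares in all 4 panels, but *WT* pool 2 in Cy3 on array 4 lies near the mean of *Mut* for *Hmga1*, *Hmga2* and *Igf2bp1*, and 0.22 below it for *Igf2bp2*. With each array centred on its median *Hmga1* and *Igf2bp2* lay below 0, and 0.14 and 0.33 above the median of the probes well above background.

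The dye term, estimated from array 4 in a fit over 4 arrays, left none of the 15 probes past the adjusted P in limma, where 1.11% of all probes passed it and 0.785% passed both thresholds. At the unadjusted P 7 of the 15 were under 0.05, as were 14.7% of all probes, and the smallest adjusted P was that of *Hmga1*, 0.0756. Array 4 enters every probe in this fit once, so its error is carried into each value and the SE rose, for *Hmga2* from 0.052 to 0.10.

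The 9 genes lie in a wider network, which was read from 7 lists with 134 genes on the array, each given by its brightest probe and none of them one of the 9. In limma 2 genes passed both thresholds as higher (1.49%, against 0.44% of all named genes) and 2 as lower (1.49%, against 1.58%). At the adjusted P alone 30 were higher (14.4% of all named genes were) and 32 lower (18.6%), and the median log2 *Mut*/*WT* was -0.02, against -0.00 over all named genes. Among the lower genes *Nr6a1*, *Afp* and *Insr* were not well above background in any *Mut* channel. Without array 3 the number past both thresholds rose from 4 to 8 (from 2.02% to 3.08% of all named genes), with *Cdc34*, *Dis3l2*, *Gart* and *Kat5* added, all lower. With the dye term 3 passed, *Ccnd1*, *Peg3* and the let-7 target *Fign* (0.60, adjusted P = 0.0322), and none of the other list genes passed the adjusted P there. *Fign* was at 0.21 on arrays 1 to 3 and at -0.38 on array 4, so its value with the dye term rested largely on array 4. For *Ccnd1*, *Peg3* and *Fign* the signal of *WT* pool 1 on array 4 was shifted in the direction of the *Mut*/*WT* difference, by 0.65, -0.63 and 0.57 from the *WT* mean of arrays 1 to 3.

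Of 17 genes that process or degrade let-7, 6 were higher and 5 lower at the adjusted P, none past 1.5-fold. *Dis3l2*, the nuclease that degrades uridylated pre-let-7, was lowest at -0.56 (adjusted P = 0.000109), and *Khsrp*, which promotes let-7 maturation, was highest at 0.38 (adjusted P = 0.00071). On array 4 they were at -0.29 and 0.27, and with the dye term at -0.27 (adjusted P = 0.387) and 0.11 (adjusted P = 0.728). The terminal uridylyltransferases *Tut4* and *Tut7*, which act with Lin28, were at 0.25 (adjusted P = 0.00568) and -0.34 (adjusted P = 0.000979). The microprocessor subunits *Drosha* and *Dgcr8* were at 0.05 (adjusted P = 0.474) and 0.31 (adjusted P = 0.00111). Apart from the called genes, those of the lists named here were chosen after their values were seen.

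Of 23 let-7 target genes outside the 9, 7 were higher and 3 lower at the adjusted P. *Ccnd1*, the D-type cyclin that drives entry into S phase, passed both thresholds, with 0.67, 0.64 and 0.73 on arrays 1 to 3, a mean of 0.68 (SE 0.052, adjusted P = 5.73e-06) and 0.03 on array 4, and it passed them with the dye term too, at 0.65 (adjusted P = 0.0124). *WT* pool 1 on array 4 was 0.65 above the mean of the 3 *WT* channels of arrays 1 to 3 for *Ccnd1*, near the level of *Mut*. The study lists *Ccnd1* as downregulated, the opposite direction. *Igf1r*, the receptor of the insulin-like growth factors, was at 0.43 (adjusted P = 0.000227), but the *WT* pools of array 4 differed by 0.40 and the dye term left 0.03. *Nras*, a small GTPase of the growth factor pathways, was at -0.04 (adjusted P = 0.669).

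In the Myc network, 5 of 19 genes were higher and 6 lower at the adjusted P. *Huwe1*, a ubiquitin ligase that acts on Myc and Mycn, was called at 0.64 (SE 0.057, adjusted P = 1.75e-05), with 0.15 on array 4 and 0.49 with the dye term (adjusted P = 0.071). *Mxd4*, a Max partner that opposes Myc, was called at -0.65 (SE 0.051, adjusted P = 6.53e-06), with -0.30 on array 4 and -0.35 with the dye term (adjusted P = 0.134). *Max*, whose product pairs with Myc and Mxd4, was at -0.13 (adjusted P = 0.0849). Of 32 target genes of Myc, 7 were higher and 7 lower at the adjusted P, within -0.55 to 0.25 and none past 1.5-fold. These included the nucleolar protein gene *Ncl* at -0.30 (adjusted P = 0.00301), *Cdk4* at -0.35 (adjusted P = 0.00338) and *Ppan*, a ribosome assembly gene, at 0.25 (adjusted P = 0.00413). *Odc1*, a classic target, was at 0.16 and did not pass (adjusted P = 0.061).

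Among 15 mRNAs bound by Igf2bp proteins or genes of the Igf axis, 4 were higher and 5 lower at the adjusted P, from *Lamb2* at -0.52 to *Igf1r* at 0.43. *Lamb2* was at -0.38 on array 4 and at -0.14 with the dye term (adjusted P = 0.643). *Igf2*, the fetal growth factor, was at 0.19 (adjusted P = 0.0157), with 0.19 on array 4 and 0.01 with the dye term. Of 12 genes of HMG box and nucleosome binding proteins, 2 were higher and 1 lower. *Hmgb1* was at 0.36 (adjusted P = 0.004) and *Tfam* at -0.20 (adjusted P = 0.0228). Of 18 further oncofetal and progenitor timing genes, 1 was higher and 5 lower. *Peg3*, an imprinted zinc finger gene, passed both thresholds at -1.09, -0.83 and -0.75, a mean of -0.89 (SE 0.066, adjusted P = 4.91e-06), with -0.02 on array 4 and -0.87 with the dye term (adjusted P = 0.0102), while *WT* pool 1 on array 4 differed by -0.63 from the mean of the *WT* channels of arrays 1 to 3. The one gene of that list that was higher was *Tcf21* at 0.53 (adjusted P = 3.5e-05), which the study lists as downregulated. *Tsc1* and *Tsc2*, whose products restrain mTOR signalling, were at -0.18 and 0.14 (adjusted P = 0.0884 and 0.0572).

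**Figure D4:**
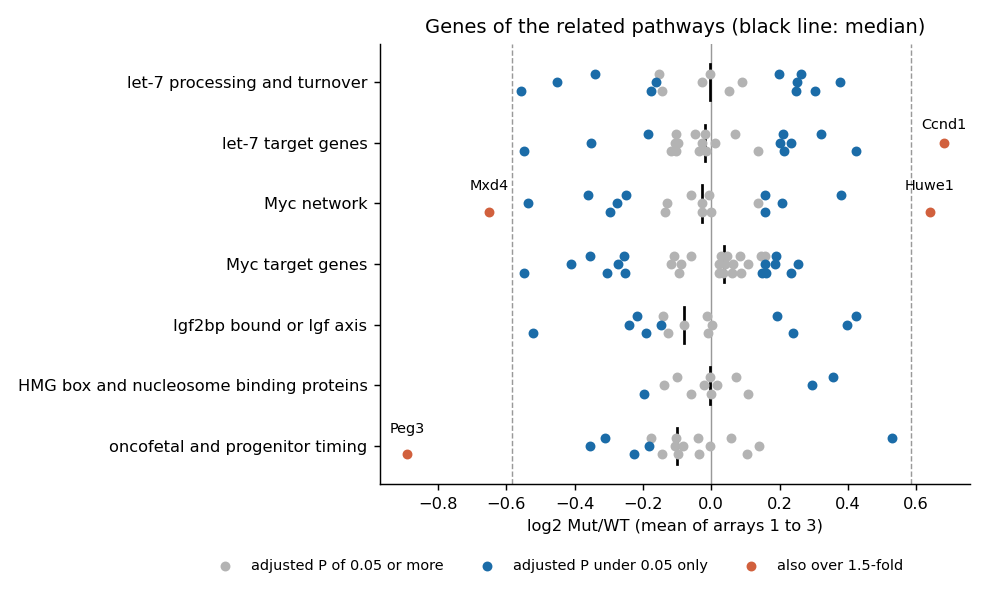
Mean log2 *Mut*/*WT* of arrays 1 to 3 (x axis) for each gene of the 7 related lists (rows), at its brightest probe, in grey where the adjusted P (limma) was 0.05 or more, in blue where it was lower and in red where the change was also over 1.5-fold (dashed lines). Black lines are list medians, which lie at -0.10 to 0.04, and *Ccnd1*, *Huwe1*, *Mxd4* and *Peg3* are the genes beyond 1.5-fold.

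For each of the 7 genes well above background in all 8 channels, the 2 named genes with the most similar signal over these channels, among 12501 probes, were listed as a description. They were *Erbin* and *Msh5* for *Myc* (Pearson r = 0.93 and 0.917), *Rbsn* and *Ndufb6* for *Mycn* (both 0.967), *Mboat2* and *Neurl1a* for *Igf2bp1* (0.982 and 0.977) and *Arpc4* and *Acap2* for *Igf2bp2* (0.993 and 0.99). For *Igf2bp3* they were *Saa1* and *Vps35* (0.989 and 0.976), for *Hmga1* *Hba-a1* and *Emid1* (0.99 and 0.987) and for *Hmga2* *Hsp90b1* and *Cab39* (0.995 and 0.994). The 8 channels share arrays, dyes and pools, and the best of so many probes is high by choice.

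**Figure D5:**
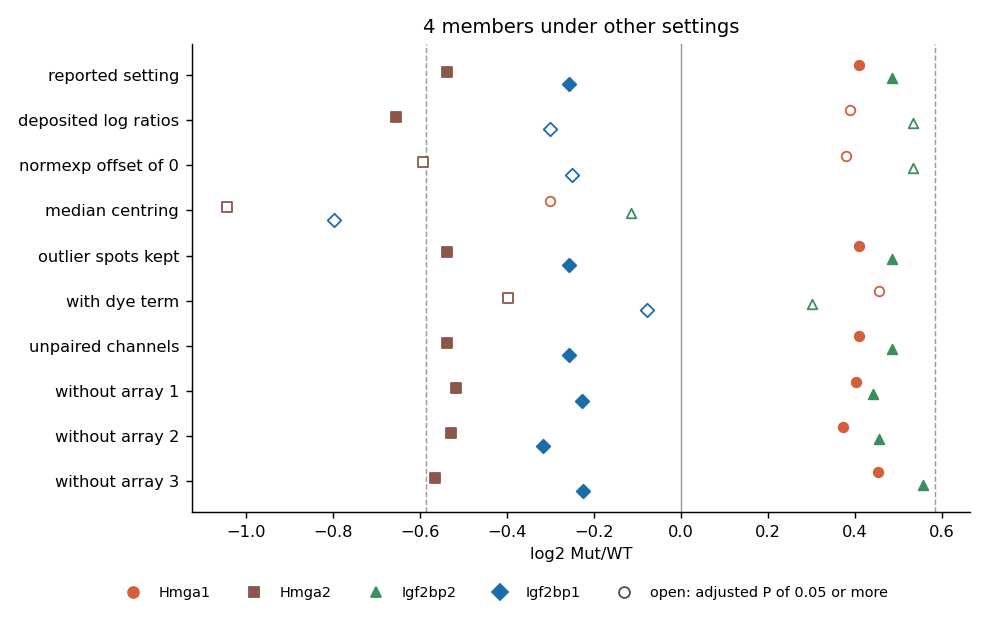
Log2 *Mut*/*WT* (x axis) of *Hmga1*, *Hmga2*, *Igf2bp2* and *Igf2bp1* under the reported setting and 9 others (rows), with filled symbols where the adjusted P (limma) was under 0.05 and dashed lines at 1.5-fold. *Hmga2* lies between -1.04 and -0.40 throughout, and *Hmga1* and *Igf2bp2* cross 0 when each array is centred on its median, at -0.30 and -0.11, where the median of the probes well above background was -0.44.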

How the data were processed

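The authors deposited Agilent Feature Extraction 10.7.3.1 output. Its intensity values, per the file headers, are linear, unnormalized medians of each spot and its local background, and its log10 ratios (Cy5 over Cy3) were background subtracted and dye normalized by that program; a deposited table of the series held the same ratios. Here the median intensities were corrected with normexp (offset 50) and normalized by loess within each array. Control and outlier spots were left out and repeat spots averaged. Log2 Cy3/Cy5 of arrays 1 to 3 was tested against 0 with limma 3.58.1 (R 4.3.3), Benjamini-Hochberg adjusted over 41166 probes. Single channels are given after Aquantile normalization. Called means an adjusted P under 0.05 and over 1.5-fold, the methods' thresholds. Accessions were matched to GRCm38.p6 RefSeq symbols (22951 of 41174 probes), for names only. The arrays pair the pools: deviations from the group means correlated at 0.388, 0.431 and 0.320. The rule for named genes took all probes of the 9 genes, called list genes and the 2 most similar genes; other list genes were chosen after their values were seen. Members and lists were chosen with earlier results of these data known. The limma P-values rest on the spread of the within-array log2 ratios, moderated towards that of all probes. The number of 3 pools per genotype limits precision. GeneSpring values were not used here.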

Additional observations from a re-analysis of the deposited data

How the results depend on the processing

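With 3 arrays in 1 dye orientation, the adjusted P of single probes depended on the background correction, the normalization and the error model. Of the 15 probes none was called in the reported setting, 1 (*Hmga2*) was called with the deposited log ratios and 6 with no fold minimum. The number past the adjusted P, 6 (2 higher, 4 lower) as reported, was 2 (1 higher, *Igf2bp3* A_51_P302336, and 1 lower, *Hmga2*) from the deposited log ratios and 0 (0 and 0) with a normexp offset of 0, with median centring, with the dye term and with the methods' t-test after Benjamini-Hochberg adjustment, 3 with that test unadjusted (1 lower), and 5 to 6 without each replicate. List genes called, 4 as reported, were 8 with the deposited log ratios, 0 with an offset of 0, with median centring and with the adjusted t-test, 62 with no fold minimum, and 4 to 8 without each replicate. All probes called, 827 as reported, were 2705 with the deposited log ratios, 0 with an offset of 0, with median centring and with the adjusted t-test, 323 with the dye term, 12186 with no fold minimum and 606 to 1206 without each replicate.

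With median centring the median of the probes well above background moved to -0.44, and with it *Myc* A_51_P102096 (-0.55), *Mycn* A_52_P536494 (-0.45), *Igf2bp2* (-0.11), *Igf2bp3* A_51_P302336 (-0.44) and *Hmga1* (-0.30) fell below 0. Relative to that median they were at -0.10, -0.0085, 0.33, 0.00035 and 0.14. *Mycn* A_51_P497332 stayed above 0, at 0.063, which is 0.51 above that median. Directions turned with the dye term for *Myc* A_51_P102096 (-0.13) and *Igf2bp3* A_51_P302336 (-0.034), without array 1 for *Myc* A_51_P102096 (range without each replicate -0.035 to 0.11) and without array 3 for *Igf2bp3* A_52_P508974 (-0.097 to 0.023). The deposited log ratios turned *Myc* A_52_P108346 (0.011) and *Igf2bp3* A_52_P508974 (0.0080), and the median over a gene's probes turned *Myc* (-0.057) and *Igf2bp3* (-0.051). Apart from the shift under median centring, the cause was not tested. With no replicate block, taking the pools as unpaired, which leaves each mean as it is, 824 probes were called and all 15 probes kept their side of the threshold, as they did with outlier spots kept. The filter on dim probes dropped the 3 *Lin28* probes and left the other 12 so. Signals near background limit *Lin28a* and *Lin28b*, whose values carry no direction. They read -0.029 (*Lin28a*) and -0.080 (*Lin28b* A_52_P676861) with the dye term, -0.71 (*Lin28b* A_52_P532355) with an offset of 0, and without each replicate -0.025 to 0.17 and -0.18 to 0.19 at the *Lin28b* probes.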
